A study of Homo sapiens with 9 samples.

Results

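The NF-kB module examined here is a set of 41 listed genes of the NF-kB pathway and its usual targets, out of 64253 gene identifiers counted in each library. The members were taken as listed by symbol, each symbol was matched to an Ensembl identifier through the gene names of the authors' table, and the identifier with the most counts was kept where a symbol had several. By role they comprise 5 NF-kB subunits, 8 genes of the IkB family and negative feedback, 8 kinases and adaptors, 3 partner transcription factors, 5 chemokines, 2 adhesion molecules, 5 acute-phase and secreted proteins, and 5 survival genes and other targets.

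RNA was sequenced from IMR90 cells, a line of normal human fetal lung fibroblasts with a limited life span in culture, in 3 groups of 3 libraries with the replicate letters a, b and c. The control group carried the pLKO.1 lentiviral vector, empty by its sample labels and with GFP by the protocol text. In the shRRM2 group, cells carried a pLKO.1 hairpin against RRM2, a subunit of ribonucleotide reductase, and the group was labelled senescence. The shRRM2/shp16 group carried that hairpin and, from a second virus, a hairpin against p16 (the product of CDKN2A), and was labelled senescence-bypass. All 3 groups were grown in 2% oxygen, used at population doubling 30, infected in 2 rounds 24 hours apart and selected for 7 days with 3 ug/mL puromycin. The p16 hairpin was never given without the RRM2 hairpin and could be read only on top of it. The labels do not say whether replicates came from separate infections or dishes, so the p-values measure the spread between these libraries, which may be technical.

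NF-kB dimers are held in the cytoplasm by inhibitory IkB proteins. Signals from cytokine receptors, pattern-recognition receptors or DNA damage act through adaptor proteins and the IkB kinases, which mark IkB proteins for degradation and so release the dimers to the nucleus. Among the genes the dimers switch on are their own inhibitors, which end the signal, and chemokines, adhesion molecules and survival genes. In senescent fibroblasts the pathway is known as a main driver of the secreted inflammatory factors, together with the transcription factor C/EBP beta.

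Promoter windows of the 6 members listed next are shown because these members held a match to the kappa B consensus, the DNA element NF-kB dimers bind, and had the largest differences of all such members between shRRM2/shp16 and shRRM2. Each window runs from 250 bases before to 50 bases after the RefSeq start site on GRCh38.p14, is written 5′ to 3′ on the gene's coding strand, and has the letters that match the 10-letter consensus in capitals. The windows are CCL20 at chr2:227813592-227813891 (plus strand), TNFAIP3 at chr6:137867009-137867308 (plus strand), VCAM1 at chr1:100719492-100719791 (plus strand), NFKBIA at chr14:35404700-35404999 (minus strand), MAP3K8 at chr10:30433771-30434070 (plus strand) and PTX3 at chr3:157436600-157436899 (plus strand).
CCL20: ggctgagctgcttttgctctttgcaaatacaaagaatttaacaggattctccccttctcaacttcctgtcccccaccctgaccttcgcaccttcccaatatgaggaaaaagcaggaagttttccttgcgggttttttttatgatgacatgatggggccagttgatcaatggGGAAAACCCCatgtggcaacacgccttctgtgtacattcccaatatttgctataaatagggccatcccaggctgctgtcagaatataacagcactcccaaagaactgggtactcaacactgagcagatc
TNFAIP3: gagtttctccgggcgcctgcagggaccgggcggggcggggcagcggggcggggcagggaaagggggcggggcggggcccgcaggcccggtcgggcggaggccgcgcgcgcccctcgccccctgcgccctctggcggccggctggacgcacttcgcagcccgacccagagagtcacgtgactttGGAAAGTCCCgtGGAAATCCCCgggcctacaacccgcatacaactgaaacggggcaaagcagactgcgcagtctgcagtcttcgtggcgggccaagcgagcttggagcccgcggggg
VCAM1: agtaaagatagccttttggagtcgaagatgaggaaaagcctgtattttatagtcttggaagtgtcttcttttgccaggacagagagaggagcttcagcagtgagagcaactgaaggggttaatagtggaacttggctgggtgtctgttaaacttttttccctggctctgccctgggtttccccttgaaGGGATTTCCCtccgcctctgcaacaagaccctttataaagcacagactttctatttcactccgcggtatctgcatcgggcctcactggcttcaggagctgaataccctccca
NFKBIA: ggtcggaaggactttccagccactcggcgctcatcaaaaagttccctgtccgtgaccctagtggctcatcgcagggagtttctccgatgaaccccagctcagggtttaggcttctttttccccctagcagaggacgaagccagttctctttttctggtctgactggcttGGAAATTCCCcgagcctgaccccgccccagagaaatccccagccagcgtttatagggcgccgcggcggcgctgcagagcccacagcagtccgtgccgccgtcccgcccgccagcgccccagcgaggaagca
MAP3K8: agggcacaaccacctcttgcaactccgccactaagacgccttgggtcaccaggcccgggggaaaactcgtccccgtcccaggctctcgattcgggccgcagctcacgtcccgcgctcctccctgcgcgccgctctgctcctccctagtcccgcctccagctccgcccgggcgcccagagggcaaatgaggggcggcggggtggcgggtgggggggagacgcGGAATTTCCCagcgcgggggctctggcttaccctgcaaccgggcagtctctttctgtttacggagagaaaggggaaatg
PTX3: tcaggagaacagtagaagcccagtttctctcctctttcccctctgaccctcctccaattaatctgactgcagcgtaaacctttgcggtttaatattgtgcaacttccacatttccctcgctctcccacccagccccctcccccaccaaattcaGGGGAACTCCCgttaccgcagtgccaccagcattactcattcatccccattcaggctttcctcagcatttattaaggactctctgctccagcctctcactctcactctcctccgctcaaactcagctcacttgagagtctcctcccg

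TNFAIP3 held 2 separate matches, starting 67 and 55 bases before the start site. PTX3 held 2 matches 1 base apart, which share most of their letters and appear as 1 run of capitals. The first letter of the single match lay 79 bases before the start site in CCL20, 62 in VCAM1, 81 in NFKBIA and 29 in MAP3K8. Windows were searched on both strands for the kappa B consensus, and overlapping matches were allowed. Of the 41 members, 31 had a window in the RefSeq table, and 14 of these (45.2%) held a match. The same share was 11.3% over all 35116 windows of the table, and 13.4% over the 15184 windows of genes tested here. With 1 mismatch allowed outside the first 3 and last 2 letters, the shares were 67.7% of members' windows, 34.8% of all windows and 42% of windows of tested genes. A match is a description of the letters in the window and was not tested for binding. Members without a window in the table were RELB, NFKBIE, IKBKB, RIPK2, CEBPD, CCL2, CX3CL1, SAA1, SAA2 and TNFRSF11B.

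**Figure D1:**
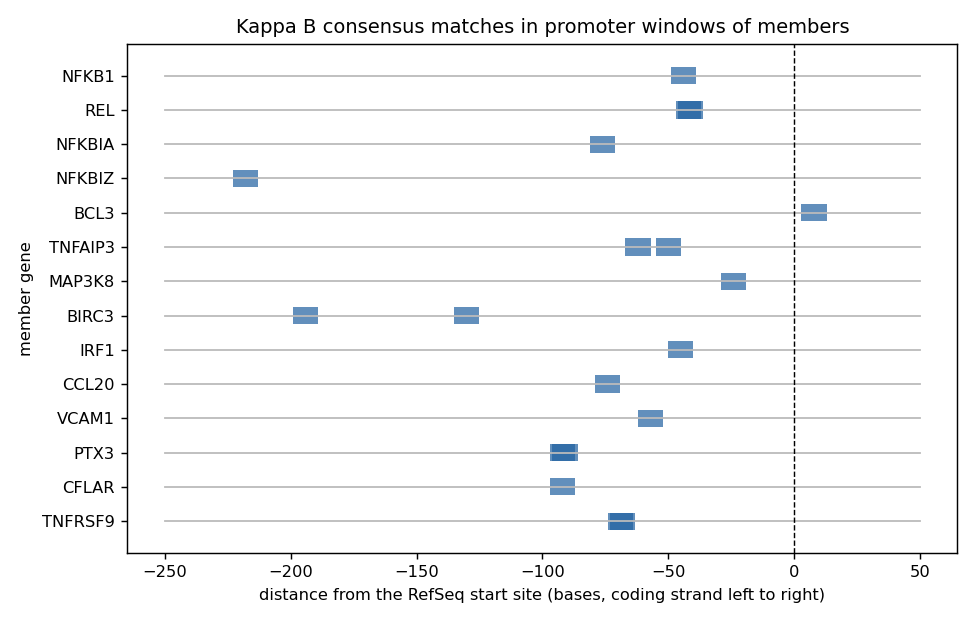
Places of the kappa B consensus matches in the promoter windows of the 14 members with a match. The x axis is the distance from the RefSeq start site in bases, each grey line is a window of 250 bases before to 50 after it, blue boxes are matches (darker where matches overlap), and all but the match of BCL3, which begins at base 3 after the start, lie before the start site.

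Gene-assigned counts ranged from 15770895 to 24873291 a library. RRM2, the targeted gene, was at 480.3, 490.5 and 483 CPM (counts relative to the scaled library total) in control replicates a, b and c, 59.9, 63.0 and 63.1 CPM in shRRM2 and 180.3, 174 and 176 CPM in shRRM2/shp16. Its level in shRRM2/shp16 therefore stood between the other groups without overlap, 7.81-fold below control in shRRM2 and 2.74-fold below control in shRRM2/shp16. RRM2 was thus 2.85-fold higher in shRRM2/shp16 than in shRRM2. In any difference between the hairpin groups, the added p16 hairpin and the smaller fall of RRM2 cannot be told apart. CDKN2A was at 6.01 ± 0.112 CPM (SD, n = 3) in control, 6.49 ± 0.463 in shRRM2 and 4.27 ± 0.320 in shRRM2/shp16, a log2 difference of -0.60 ± 0.13 (SE), edgeR adjusted p = 7.0e-05 between the hairpin groups. The share of uniquely aligned reads that fell in no gene feature used for counting was 17.65 to 18.92% in control, 27.7 to 28.83% in shRRM2 and 23.48 to 24.35% in shRRM2/shp16. Whether these reads lay in introns or outside genes is not given, and their part in the results was not tested. Fibroblast markers were at 1 CPM or more for 10 of 10 genes in each group, with summed levels of 27120 to 27980 CPM in control, 26510 to 27290 in shRRM2 and 22860 to 23450 in shRRM2/shp16. Of 10 blood cell markers, LYZ alone reached 1 CPM, the summed level stayed between 1.88 and 3.61 CPM in the 9 libraries, and CD3E, MS4A1 and AIF1 had 0 counts in each. AIF1 has 6 identifiers, so reads shared among them may be missing from its count. Of 8 epithelial markers EPCAM and CLDN4 reached 1 CPM, and the summed level was 24.2 to 25.6 CPM in control, 12.7 to 13.5 in shRRM2 and 3.68 to 5.74 in shRRM2/shp16. Of 6 endothelial markers TEK reached 1 CPM in each group and VWF also in shRRM2/shp16, where the summed level was 110.4 to 119.9 CPM against 64.0 to 71.6 in the other 2 groups and CDH5 had 0 counts. The epithelial sum was mostly CLDN4, with means of 22.8, 10.6 and 2.36 CPM in control, shRRM2 and shRRM2/shp16. EPCAM had means of 1.22, 1.27 and 1.07 CPM in that order. TEK made up most of the endothelial sum, at 65.1, 67.3 and 115 CPM. Fibroblast markers went both ways from shRRM2 to shRRM2/shp16, COL1A1 from 13420 to 9313 CPM and COL3A1 from 1654 to 3624 CPM. The part of these marker differences in the results below was not tested.

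In shRRM2/shp16 cells many genes of the module were higher than in both other groups, some by little and some many-fold, and the largest called differences from shRRM2 were those of CCL20, BCL2A1, CCL7, TNFAIP3 and CCL2. CCL20, BCL2A1 and CCL7 had few counts in control and shRRM2, so the sizes of their differences are uncertain. In shRRM2 cells the module was mixed: 18 members were called higher than control and 7 lower, beside 29% and 31.8% of tested genes. Among the 18, ICAM1 rose 5.84-fold, TNFAIP2 1.997-fold and SOD2 1.99-fold. The 7 were PTX3, TNFAIP6, TRAF2, MAP3K8, BCL3, NFKBIB and NFKBIA. Some calls in both directions were lost under other settings, as given below. Summed over the 41 members, the level was 1255 ± 7.48 CPM (SD, n = 3) in control, 1705 ± 9.29 in shRRM2 and 3872 ± 11.8 in shRRM2/shp16. SOD2 alone made up 12.94%, 18.98% and 30.84% of that sum, and without it the means were 1093, 1382 and 2678 CPM. In these bulk samples, fewer cells that express a gene and less RNA per cell cannot be told apart.

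**Figure D2:**
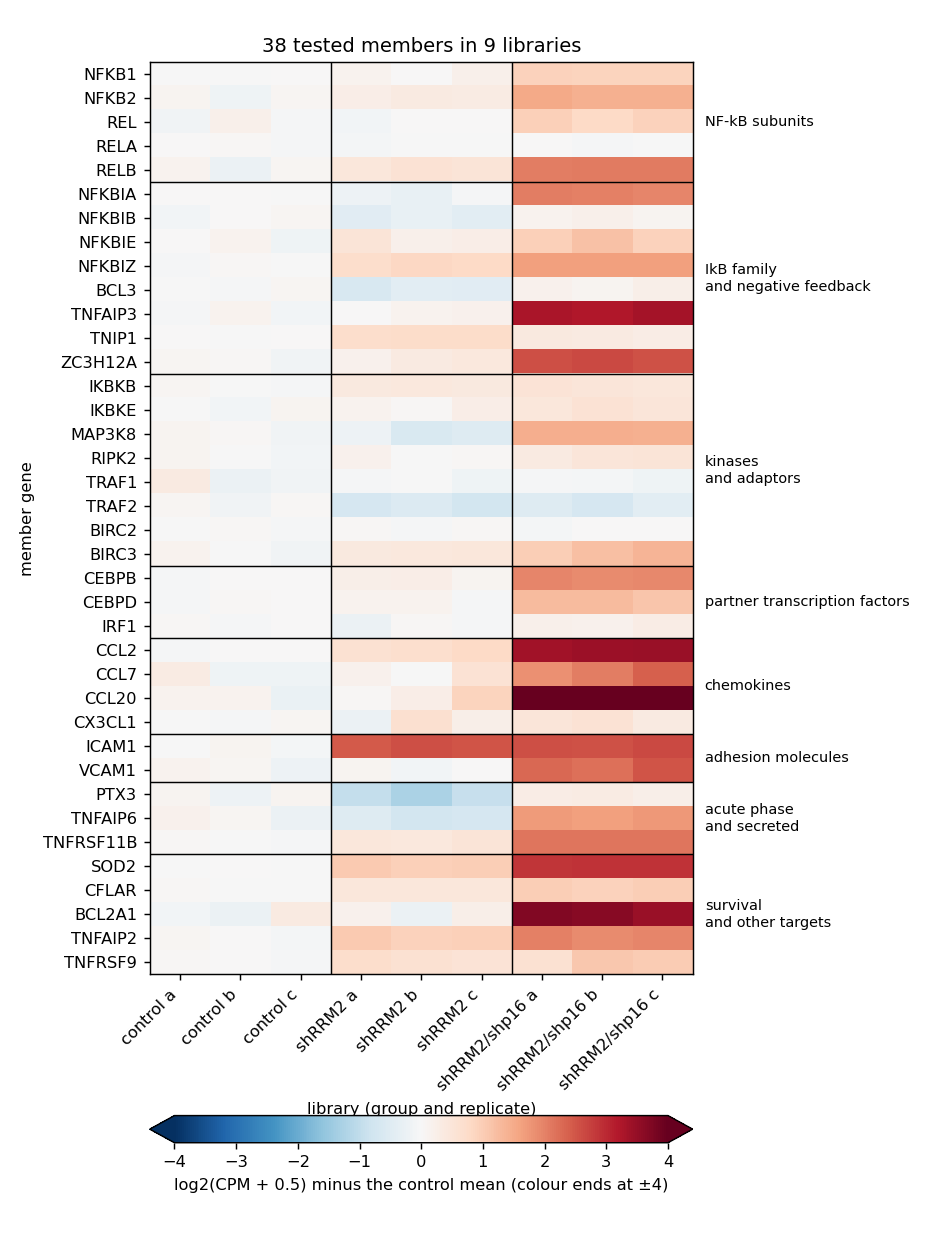
Level of the 38 tested members (rows, by role) in the 9 libraries (columns), as log2(CPM + 0.5) minus the mean of the control libraries; red is higher and blue lower than control, and the colour scale ends at 4 on either side. The 3 shRRM2/shp16 columns are red in most rows, ICAM1 is red in both hairpin groups, and PTX3, TNFAIP6 and TRAF2 are blue in shRRM2.

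CCL8, SAA1 and SAA2 were too low to be tested, which left 38 members of the 16561 genes in the fit. A gene was called where its edgeR adjusted p over the 16561 genes was under 0.05. In shRRM2 against control, 18 members were higher, 7 lower and 13 not called, while 29% of all tested genes were called higher and 31.8% lower. By at least 2-fold, CCL20, ICAM1 and TNFRSF9 were higher and PTX3 lower, where 6.81% and 3.26% of tested genes were. The median log2 difference of the 38 members was 0.21, and that of all tested genes 0.00. The median lay above that of all genes while calls in both directions were present.

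In shRRM2/shp16 against shRRM2, 29 members were higher, TNIP1 was lower and 8 were not called, beside 31.9% of tested genes called higher and 29.1% lower. At least 2-fold higher were 17 members, against 5.19% of tested genes. TNIP1 had the lowest value of a member, -0.37 by edgeR and -0.38 by DESeq2, so no tested member was 2-fold lower at any p, against 6.58% of tested genes. The median member value was 0.91 on the log2 scale, and the median of all tested genes 0.01. In shRRM2/shp16 against control, 34 members were higher, TRAF2 was lower, and RELA, TRAF1 and BIRC2 were not called, beside 30% of tested genes called higher and 32.4% lower. At least 2-fold higher were 23 members, against 6.59% of tested genes. The lowest value, that of TRAF2, was -0.56 by both edgeR and DESeq2, so that no tested member was 2-fold lower at any p, against 6% of tested genes. The median was 1.37 over the members and 0.01 over all tested genes. The 3 comparisons share libraries in pairs and are given side by side for that reason.

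CCL7, CCL20, CX3CL1, BCL2A1 and TNFRSF9 lay under the filter's CPM minimum in each control library and passed it through other groups, so the filter itself favoured a difference from control for them. In shRRM2, CCL7 and BCL2A1 reached that minimum in 0 libraries and CCL20 in 1. CCL7, BCL2A1 and CCL20 thus passed through shRRM2/shp16, and the filter favoured their differences from shRRM2 as well. Over the other 33 tested members, 16 were higher and 7 lower in shRRM2 against control. Between the hairpin groups 26 were higher and 1 lower, and in shRRM2/shp16 against control 29 and 1. Their medians in that order were 0.12, 0.86 and 1.23 on the log2 scale. At least 2-fold higher, in the same order, were 1, 14 and 18 of these 33 members, beside 6.81%, 5.19% and 6.59% of tested genes. The counts of 3, 17 and 23 over all 38 tested members thus include members that the filter favoured.

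**Figure D3:**
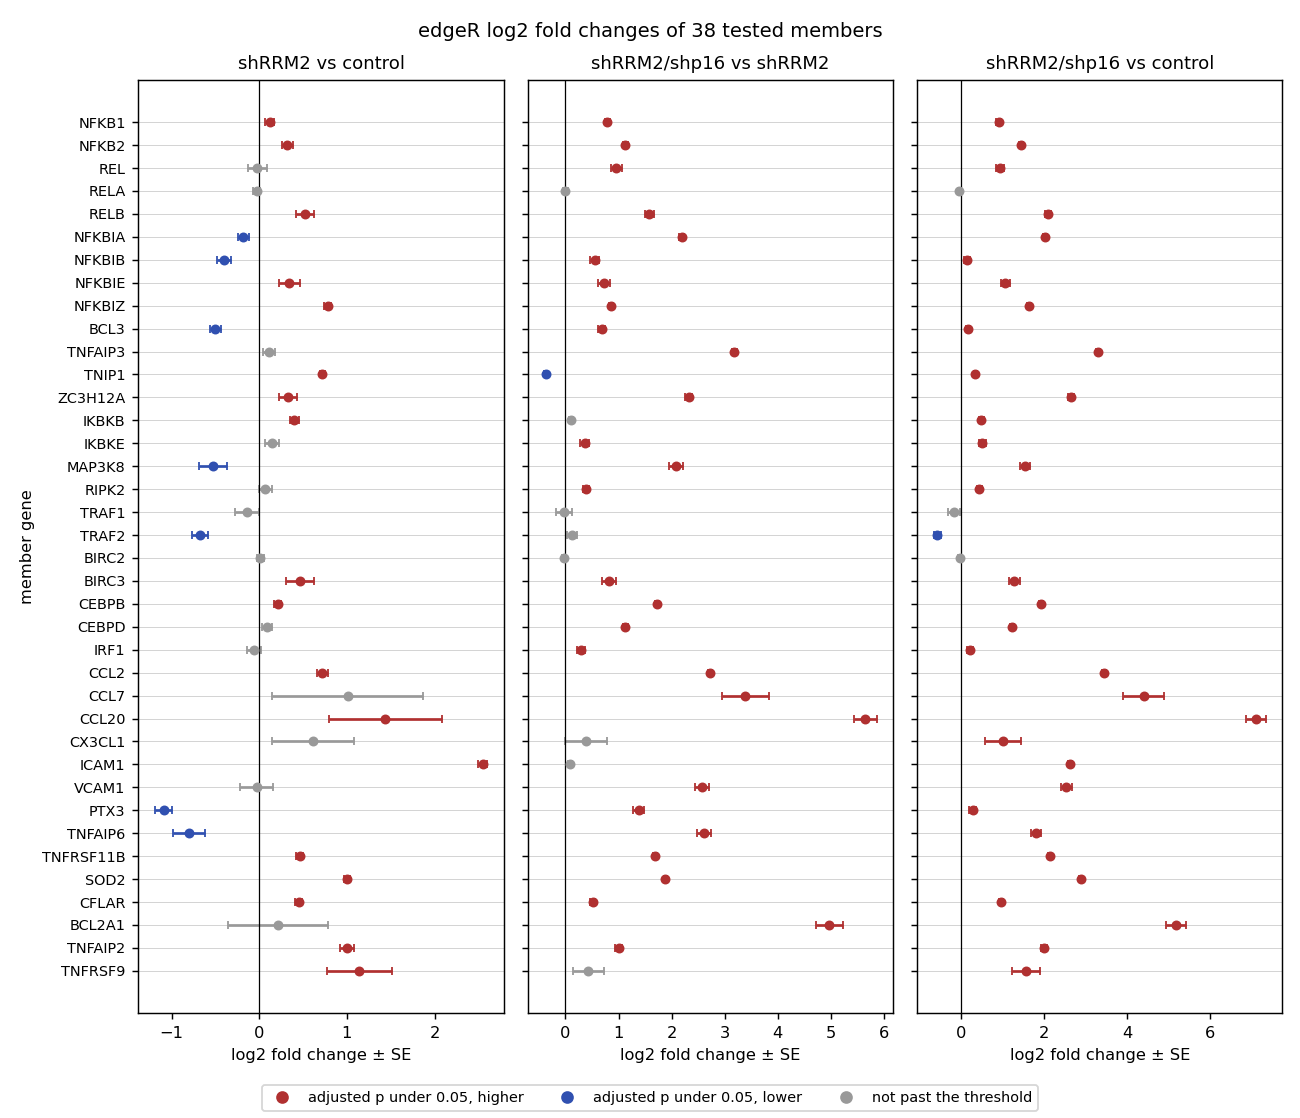
Fitted log2 fold change with its standard error (x axis) of each tested member (y axis) in the 3 comparisons, with separate x scales; red is called higher, blue called lower, grey not called. In shRRM2/shp16 against shRRM2, TNIP1 is the 1 blue point, and CCL20 lies farthest to the right at 5.65.

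Among the NF-kB subunits, 4 of 5 rose in shRRM2/shp16 over shRRM2, where 31.9% of tested genes did, and RELA did not pass the edgeR test in any of the 3 comparisons. RELA, which encodes the p65 subunit that activates transcription, was at 116 ± 2.76 CPM in control, 113 ± 2.60 in shRRM2 and 113 ± 3.06 in shRRM2/shp16, and its values overlapped in the 3 groups. Its log2 difference between shRRM2/shp16 and control was -0.03 ± 0.04 (SE), edgeR adjusted p = 0.55, but it passed the threshold with the other sign under limma on the deposited log2 RPKM (0.0438), with a range from 0.0438 to 0.968 over 14 alternatives. RELB, whose product pairs with p52 in the non-canonical branch, was at 8.996, 6.75 and 8.57 CPM in control, 11.1, 12.3 and 11.8 in shRRM2 and 34.6, 35.4 and 35.5 in shRRM2/shp16. The 3 groups of RELB values stood in 3 steps without overlap. The log2 difference was 1.58 ± 0.08 (SE), edgeR adjusted p = 2.5e-22, between shRRM2/shp16 and shRRM2, after 0.52 ± 0.10 (SE), edgeR adjusted p = 1.1e-05, between shRRM2 and control. NFKB2, which encodes the precursor of p52, was at 35.6, 29.5 and 34.9 CPM in control, 39.9, 43.0 and 41.8 in shRRM2 and 94.8, 89.3 and 89.1 in shRRM2/shp16. NFKB2 values also rose in 2 steps without overlap, by 0.32 ± 0.06 and 1.13 ± 0.05 on the log2 scale.

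NFKB1, which encodes the precursor of p50, had a mean of 35.2 CPM in control, 38.4 in shRRM2 and 66.2 in shRRM2/shp16, and rose by 0.79 ± 0.05 between the hairpin groups. Its difference between shRRM2 and control, 0.12 ± 0.05 (SE), edgeR adjusted p = 0.043, overlapped between libraries. That call was lost without control replicate a (0.0848), b (0.0789) or c (0.0809) and without shRRM2 replicate a (0.0977) or c (0.201). DESeq2 (0.0621) and the fit without the low-count filter (0.325) lost it too. The adjusted p of NFKB1 there ran from 0.00626 to 0.325 over 15 alternatives. REL, which encodes c-Rel, was at 7.17, 7.02 and 13.7 CPM and rose by 0.96 ± 0.10 between the hairpin groups, with no call between shRRM2 and control.

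Of the 8 genes of the IkB family and negative feedback, 7 rose in shRRM2/shp16 over shRRM2, where 31.9% of tested genes did, and TNIP1 fell, as did 29.1%. All 8 were called above control there, beside 30% of tested genes. The largest differences from shRRM2 were those of TNFAIP3, ZC3H12A and NFKBIA. TNFAIP3 (ENSG00000118503, chr6:137867188-137883312, plus strand, GRCh38) encodes A20, an enzyme that edits ubiquitin chains and shuts off signalling upstream of the IkB kinases. It was at 18.7, 21.3 and 17.6 CPM in control, 19.2, 21.1 and 21.8 in shRRM2 and 190.3, 181 and 195 in shRRM2/shp16. Control and shRRM2 values overlapped, and each shRRM2/shp16 value lay far above both. TNFAIP3 was 9.09-fold higher in shRRM2/shp16 than in shRRM2, a log2 difference of 3.18 ± 0.05 (SE), edgeR adjusted p = 6.4e-40. Between shRRM2 and control the difference was 0.11 ± 0.07 (SE), edgeR adjusted p = 0.159, and it passed the threshold without control replicate b (0.0266, with a range from 0.0266 to 0.639 over 15 alternatives).

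NFKBIA (ENSG00000100906, chr14:35401511-35404749, minus strand) encodes IkB alpha, the inhibitor that NF-kB re-induces within a single round of signalling. It was at 30.4, 30.7 and 29.6 CPM in control, 26.4, 24.6 and 29.3 in shRRM2 and 126, 123 and 118 in shRRM2/shp16. The shRRM2 libraries were the lowest without overlapping control, and the shRRM2/shp16 libraries lay well above both groups. NFKBIA rose 4.57-fold between the hairpin groups, a log2 difference of 2.19 ± 0.05 (SE), edgeR adjusted p = 3.3e-34. Its lower value in shRRM2 than in control, -0.18 ± 0.06 (SE), edgeR adjusted p = 0.0113, was lost without shRRM2 replicate b (0.145), with a range from 0.0015 to 0.954 over 15 alternatives. ZC3H12A encodes regnase-1, a nuclease that degrades inflammatory messenger RNAs. Its values were 7.49, 7.42 and 6.42 CPM in control, 8.11, 9.15 and 9.68 in shRRM2 and 44.7, 46.5 and 43.7 in shRRM2/shp16, so that the last group stood apart. The log2 difference of ZC3H12A between the hairpin groups was 2.32 ± 0.07 (SE), edgeR adjusted p = 8.3e-29. Its step from control to shRRM2 was 0.33 ± 0.10 (SE), edgeR adjusted p = 0.00471, and this call ended when the authors' deposited log2 RPKM values were tested with limma, with a range from 0.00199 to 0.0895 over 15 alternatives.

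NFKBIZ, which encodes the nuclear IkB zeta that co-activates a subset of inflammatory genes, was at 59.3, 64.4 and 61.3 CPM in control, 101, 109 and 107 in shRRM2 and 191, 192 and 191 in shRRM2/shp16. The groups did not overlap, and NFKBIZ rose in both steps, by 0.78 ± 0.04 and 0.86 ± 0.04 on the log2 scale. NFKBIE, the gene of IkB epsilon, was at 5.90, 6.42 and 5.12 CPM in control, 8.43, 6.68 and 7.10 in shRRM2 and 11.7, 13.8 and 11.3 in shRRM2/shp16. The shRRM2/shp16 values of NFKBIE were the highest, and the other 2 groups lay close together without overlap. NFKBIE rose by 0.73 ± 0.11 between the hairpin groups. Its call in shRRM2 against control, 0.34 ± 0.12 (SE), edgeR adjusted p = 0.0156, was lost without control replicate c (0.0946) and without shRRM2 replicate a (0.118), with a range from 0.00827 to 0.319 over 15 alternatives.

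BCL3, a nuclear IkB-like co-regulator of p50 and p52, was lower in shRRM2 (30.9 CPM) than in control (44.1 CPM) and shRRM2/shp16 (49.9 CPM). Against control, its log2 difference was -0.50 ± 0.06 (SE), edgeR adjusted p = 2.2e-10, in shRRM2 and 0.18 ± 0.05 (SE), edgeR adjusted p = 0.00225, in shRRM2/shp16. Both calls ended with limma on the authors' RPKM values, an alternative to the count fit that includes the column of shRRM2 replicate c, which does not match its counts. The call for shRRM2 held with that column left out, and the adjusted p of BCL3 ran from 1.7e-20 to 0.228 over 15 alternatives in shRRM2 and from 5.7e-04 to 0.22 over 14 alternatives in shRRM2/shp16. NFKBIB, the gene of IkB beta, showed the same order of means, 19.5, 14.7 and 21.6 CPM in control, shRRM2 and shRRM2/shp16. NFKBIB differed from control by -0.40 ± 0.08 in shRRM2, and between the hairpin groups by 0.55 ± 0.08, both past the threshold. Its call in shRRM2/shp16 against control, 0.16 ± 0.07 (SE), edgeR adjusted p = 0.0474, was lost without control replicate a (0.251), control replicate b (0.0533), shRRM2/shp16 replicate a (0.0636) or shRRM2/shp16 replicate b (0.128), with a range from 0.0125 to 0.251 over 14 alternatives. DESeq2 (0.123) and the fit without the low-count filter (0.184) also lost that call. NFKBIB overlaps SIRT2 on the opposite strand, and the strand setting of the counting is not given in the sources used here, so reads of the pair cannot be told apart.

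TNIP1 encodes ABIN1, a ubiquitin-binding partner of A20 that restrains the pathway. It was at 107, 105 and 108 CPM in control, 173, 177 and 178 in shRRM2 and 141, 137 and 131 in shRRM2/shp16. TNIP1 thus stood highest in shRRM2, with no overlap among the 3 groups. TNIP1 exceeded control in shRRM2 by 0.72 ± 0.03 (SE), edgeR adjusted p = 5.2e-22, on the log2 scale. Between the hairpin groups its log2 difference was -0.37 ± 0.03 (SE), edgeR adjusted p = 8.2e-13. The latter call ended under limma on the RPKM values that include the mismatched column of shRRM2 replicate c and held with that column left out, with a range from 5.6e-22 to 0.151 over 15 alternatives.

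**Figure D4:**
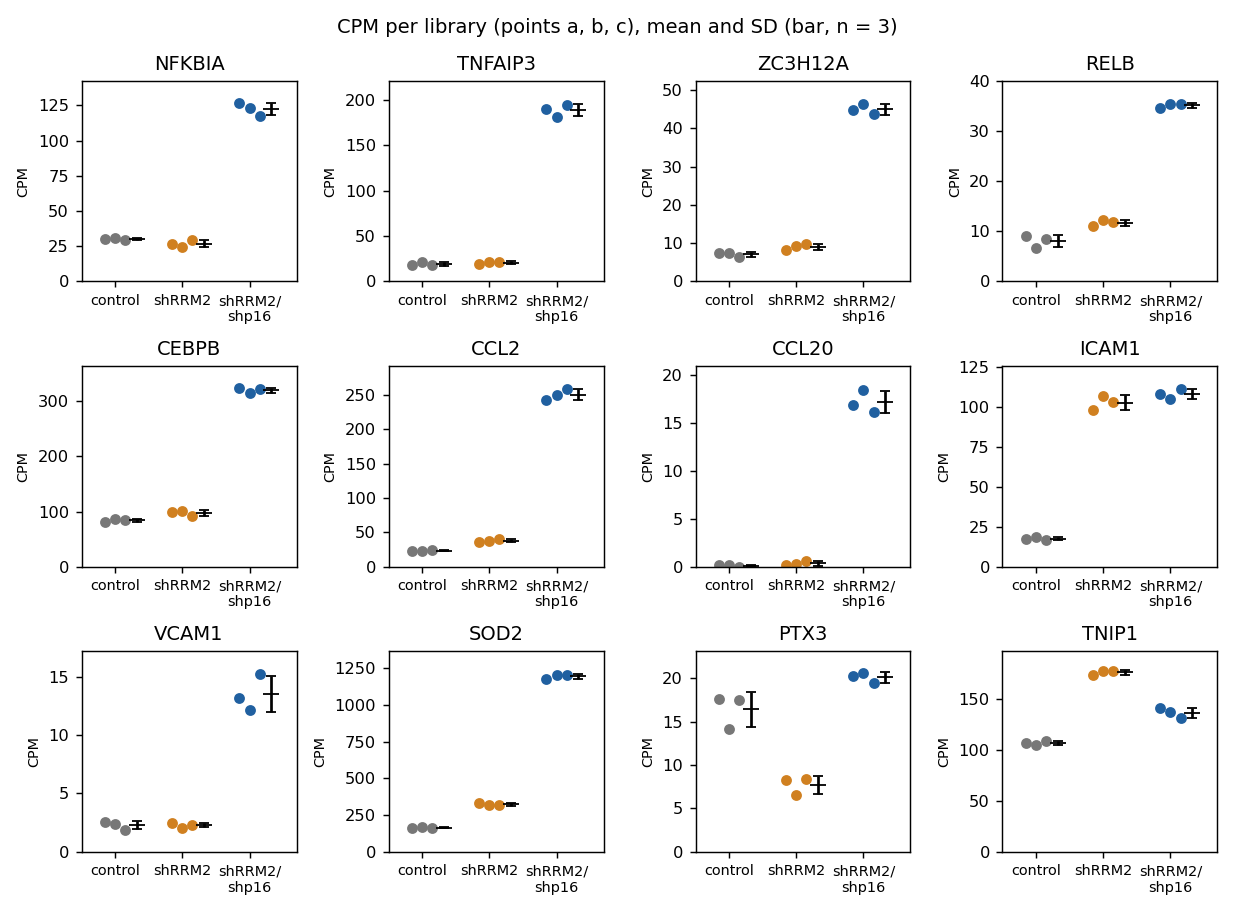
CPM (y axis, linear from 0) of 12 members in each library of control (grey), shRRM2 (orange) and shRRM2/shp16 (blue), with the mean and SD of 3 libraries as a black bar. NFKBIA, TNFAIP3, ZC3H12A, CCL20 and VCAM1 stand apart in shRRM2/shp16, ICAM1 is high in both hairpin groups, PTX3 is lowest and TNIP1 highest in shRRM2.

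Of the 8 kinases and adaptors, 4 rose in shRRM2/shp16 over shRRM2, beside 31.9% of tested genes, and the median log2 difference of 0.24 was the lowest of the 8 roles. MAP3K8, which encodes the kinase TPL2 that is bound by p105, had the largest difference of the 8. It was at 3.93, 3.74 and 3.21 CPM in control, 3.04, 2.19 and 2.40 in shRRM2 and 10.9, 10.7 and 10.6 in shRRM2/shp16. The shRRM2 values of MAP3K8 were lowest without overlap, and the shRRM2/shp16 values were the highest. The log2 difference between the hairpin groups was 2.08 ± 0.13 (SE), edgeR adjusted p = 7.6e-18, and that between shRRM2 and control was -0.53 ± 0.16 (SE), edgeR adjusted p = 0.00484. The latter call ended under limma on the deposited log2 RPKM (0.0594), with a range from 0.00197 to 0.077 over 15 alternatives. Under limma on log2(RPKM + 0.1), the MAP3K8 call held with the mismatched column of shRRM2 replicate c and ended without that column (0.077). BIRC3, which encodes the ubiquitin ligase cIAP2, was at 3.22, 2.90 and 2.62 CPM in control, 3.99, 4.09 and 4.12 in shRRM2 and 6.17, 7.26 and 8.21 in shRRM2/shp16. BIRC3 rose between the hairpin groups by 0.82 ± 0.13 on the log2 scale, without overlap. Its smaller difference between shRRM2 and control, 0.47 ± 0.16 (SE), edgeR adjusted p = 0.0108, was lost without control replicate c (0.0507), with a range from 0.00625 to 0.132 over 15 alternatives.

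BIRC2, the neighbouring gene that encodes the related ligase cIAP1, was at 142 ± 4.93 CPM in control, 143 ± 4.52 in shRRM2 and 139.9 ± 5.48 in shRRM2/shp16, and passed no test. TRAF2, the adaptor that joins TNF receptors to these ligases, fell by 0.68 in shRRM2 and by 0.56 in shRRM2/shp16 against control on the log2 scale (means 15.9, 9.95 and 10.9 CPM). TRAF1, an adaptor often induced by NF-kB in immune cells, had means of 5.33, 4.94 and 4.88 CPM and was not called in any comparison. IKBKB, the gene of IkB kinase beta, rose from 49.2 CPM in control to 65.0 in shRRM2 and stood at 69.6 in shRRM2/shp16. Its difference between the hairpin groups, 0.10 ± 0.04 (SE), edgeR adjusted p = 0.0551, passed the threshold without shRRM2/shp16 replicate c (0.029), with a range from 0.0102 to 0.24 over 15 alternatives. IKBKE, the gene of a related kinase of the interferon response, and RIPK2, the kinase downstream of NOD receptors, rose between the hairpin groups by 0.36 ± 0.08 and 0.39 ± 0.06. IKBKE was not called in shRRM2 against control (0.15 ± 0.08 (SE), edgeR adjusted p = 0.0961) but was without shRRM2 replicate b (0.0332), with a range from 0.0332 to 0.389 over 15 alternatives.

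The 3 partner transcription factors each rose in shRRM2/shp16 over shRRM2, beside 31.9% of tested genes. CEBPB encodes C/EBP beta, which acts with NF-kB on promoters of secreted factors. It was at 81.3, 85.7 and 85.2 CPM in control, 99.1, 101 and 91.2 in shRRM2 and 324, 315 and 322 in shRRM2/shp16. CEBPB values in shRRM2 lay just above control, and those in shRRM2/shp16 were over 300 CPM in each library. The log2 difference of CEBPB was 1.72 ± 0.04 (SE), edgeR adjusted p = 4.4e-36, between the hairpin groups and 0.21 ± 0.04 (SE), edgeR adjusted p = 1.2e-05, between shRRM2 and control. CEBPD, its paralog C/EBP delta, was at 31.6, 33.9 and 32.8 CPM in control, 36.2, 36.5 and 32.01 in shRRM2 and 79.0, 78.9 and 71.7 in shRRM2/shp16. CEBPD overlapped between control and shRRM2 and was higher in shRRM2/shp16, by 1.13 ± 0.05 over shRRM2. Between shRRM2 and control it was not called, but was without shRRM2 replicate c (0.027, with a range from 0.027 to 0.575 over 15 alternatives). IRF1, an interferon-regulated factor, rose by 0.29 ± 0.08, from a mean of 16.8 to 20.5 CPM, and overlaps C5orf56 on the opposite strand.

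The chemokines included CCL20, which had the largest difference of the module, and several genes with few counts. CCL2 (ENSG00000108691, chr17:34255218-34257203, plus strand) encodes MCP-1, which attracts monocytes. Its level was 22.6, 23.3 and 23.6 CPM in control, 35.9, 37.0 and 40.7 in shRRM2 and 242, 250.3 and 258 in shRRM2/shp16. CCL2 rose in 2 steps without overlap, 1.64-fold from control to shRRM2 and 6.60-fold from there to shRRM2/shp16. The latter step was 2.72 ± 0.04 (SE), edgeR adjusted p = 1.6e-40 on the log2 scale, and shRRM2/shp16 stood 10.8-fold over control.

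CCL20 (ENSG00000115009, chr2:227805739-227817564, plus strand) encodes a chemokine that attracts cells bearing CCR6. It had 4, 3 and 0 counts in the control libraries, 2, 4 and 11 in shRRM2 and 321, 372 and 302 in shRRM2/shp16. These counts correspond to 16.9, 18.5 and 16.2 CPM in shRRM2/shp16 and to under 1 CPM in each library of the other groups. The fitted log2 difference between the hairpin groups was 5.65 ± 0.21 (SE), edgeR adjusted p = 1.6e-26, a size that rests on very low counts in shRRM2. In shRRM2 against control, the groups overlapped and the call (1.44 ± 0.64 (SE), edgeR adjusted p = 0.0497) was lost without control replicate c (log2 0.97, adjusted p = 0.19) and without shRRM2 replicate c (log2 0.58, adjusted p = 0.549), with a range from 0.016 to 0.627 over 13 alternatives. The same call was lost without the low-count filter (0.0752).

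CCL7, a monocyte chemokine beside CCL2 on chromosome 17, had 5, 0 and 0 counts in control, 2, 1 and 6 in shRRM2 and 28, 37 and 46 in shRRM2/shp16. CCL7 was above both other groups in each shRRM2/shp16 library, and its fitted log2 difference between the hairpin groups was 3.39 ± 0.44 (SE), edgeR adjusted p = 7.8e-09. Without control replicate a, which held all control counts, the difference between shRRM2 and control went from 1.01 to 4.72 and passed the threshold (0.0123, with a range from 0.0123 to 0.951 over 13 alternatives). CX3CL1, the membrane-bound chemokine fractalkine, had 7, 5 and 6 counts in control, 3, 13 and 8 in shRRM2 and 12, 14 and 10 in shRRM2/shp16. Its counts were low throughout, and its call in shRRM2/shp16 against control (1.01 ± 0.43 (SE), edgeR adjusted p = 0.0397) was lost on leaving out any library but shRRM2/shp16 replicate c, with a range from 0.021 to 0.125 over 11 alternatives. The values without control replicates a, b and c were 0.109, 0.0937 and 0.0594, and without shRRM2/shp16 replicates a and b 0.0802 and 0.116. The CX3CL1 call was also lost under DESeq2 (0.125) and without the low-count filter (0.0816). CCL8, another monocyte chemokine of that cluster, had 0 counts in each of the 9 libraries.

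The 2 adhesion molecules, both ligands for leukocyte integrins, differed in the group where they were high. ICAM1 (ENSG00000090339, chr19:10270835-10286615, plus strand) was at 17.2, 18.8 and 16.7 CPM in control, 97.7, 107 and 103 in shRRM2 and 108, 105 and 111 in shRRM2/shp16. Both hairpin groups lay far above control and overlapped each other. ICAM1 was 5.84-fold higher in shRRM2 than in control, a log2 difference of 2.55 ± 0.05 (SE), edgeR adjusted p = 1.6e-35. Between the hairpin groups its difference was 0.08 ± 0.04 (SE), edgeR adjusted p = 0.101, and it passed the threshold without shRRM2 replicate b (0.0362), with a range from 0.0362 to 0.407 over 15 alternatives. VCAM1 was at 2.55, 2.40 and 1.90 CPM in control, 2.47, 2.07 and 2.29 in shRRM2 and 13.2, 12.2 and 15.2 in shRRM2/shp16. VCAM1 values overlapped between control and shRRM2, and each shRRM2/shp16 value was above them. The log2 difference between the hairpin groups was 2.57 ± 0.13 (SE), edgeR adjusted p = 8.2e-21.

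Of the acute-phase and secreted proteins, the 3 that could be tested rose in shRRM2/shp16 over shRRM2 (31.9% of tested genes did), and PTX3 and TNFAIP6 were lowest in shRRM2. PTX3 encodes the long pentraxin, a soluble pattern-recognition protein. It was at 17.6, 14.1 and 17.6 CPM in control, 8.23, 6.56 and 8.42 in shRRM2 and 20.2, 20.6 and 19.5 in shRRM2/shp16. The shRRM2 libraries were the lowest for PTX3, and the shRRM2/shp16 libraries lay above control without overlap. PTX3 differed from control by -1.09 ± 0.10 (SE), edgeR adjusted p = 5.8e-13, in shRRM2, and between the hairpin groups by 1.38 ± 0.10 (SE), edgeR adjusted p = 1.1e-16. Its difference of 0.29 ± 0.08 (SE), edgeR adjusted p = 0.00188, in shRRM2/shp16 against control ended under limma on log2(RPKM + 0.1), with a range from 4.9e-04 to 0.105 over 14 alternatives. PTX3 overlaps VEPH1 on the opposite strand, so the same limit on strand holds for it.

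TNFAIP6 encodes TSG-6, a hyaluronan-binding protein of inflamed tissue. It was at 3.56, 3.29 and 2.56 CPM in control, 2.03, 1.67 and 1.77 in shRRM2 and 11.2, 10.7 and 11.5 in shRRM2/shp16. The order of groups was that of PTX3, without overlap. TNFAIP6 was 6.10-fold higher in shRRM2/shp16 than in shRRM2, a log2 difference of 2.61 ± 0.14 (SE), edgeR adjusted p = 4.2e-20. Its difference between shRRM2 and control was -0.80 ± 0.18 (SE), edgeR adjusted p = 2.0e-04, and it ended under limma on the RPKM values with the mismatched column of shRRM2 replicate c but held without that column, with a range from 5.5e-05 to 0.58 over 15 alternatives. TNFRSF11B, the gene of the decoy receptor osteoprotegerin, was at 59.3, 56.9 and 55.3 CPM in control, 78.4, 76.8 and 81.4 in shRRM2 and 254, 251 and 251 in shRRM2/shp16. TNFRSF11B rose in 2 steps without overlap, 1.38-fold and then 3.19-fold. SAA1 and SAA2, closely related acute-phase genes, had 0 to 3 and 2 to 8 counts a library. Reads that aligned to several places were tallied apart from the genes, so the counts of both may be too low.

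Among the survival genes and other targets, SOD2 was the most abundant by counts and BCL2A1 had the largest difference. SOD2 (ENSG00000112096, chr6:159669057-159745186, minus strand) encodes the mitochondrial superoxide dismutase that removes superoxide. It was at 159, 166 and 162 CPM in control, 334, 317 and 319.6 in shRRM2 and 1174, 1206 and 1202 in shRRM2/shp16. SOD2 rose in 2 steps without overlap, 1.99-fold and then 3.69-fold. The latter step was 1.88 ± 0.03 (SE), edgeR adjusted p = 1.7e-41, on the log2 scale. SOD2 overlaps WTAP on the opposite strand, so part of its counts could belong to that gene.

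BCL2A1, an anti-apoptotic relative of BCL2, had 4, 2 and 7 counts in control, 5, 2 and 6 in shRRM2 and 167, 171 and 138 in shRRM2/shp16. BCL2A1 was near the limit of detection in the first 2 groups and above 100 counts in each library of the third. Its fitted log2 difference between the hairpin groups was 4.97 ± 0.25 (SE), edgeR adjusted p = 3.4e-21. TNFAIP2, an NF-kB-induced gene whose protein shapes membrane protrusions, was at 11.2, 10.7 and 9.88 CPM in control, 22.1, 20.6 and 21.0 in shRRM2 and 44.4, 40.6 and 42.4 in shRRM2/shp16. The 3 groups of TNFAIP2 did not overlap, and the fitted fold was 1.997 from control to shRRM2 and, just under the 2-fold mark before rounding, 2.00 from shRRM2 to shRRM2/shp16. CFLAR, which encodes the caspase-8 inhibitor c-FLIP, rose by 0.45 ± 0.04 and then by 0.51 ± 0.04 (means 75.3, 103 and 148 CPM). TNFRSF9, the gene of the co-stimulatory receptor 4-1BB, had 10, 7 and 6 counts in control, 15, 15 and 14 in shRRM2 and 16, 28 and 24 in shRRM2/shp16. The hairpin groups of TNFRSF9 overlapped, and its calls against control were 1.14 ± 0.37 (SE), edgeR adjusted p = 0.00728, for shRRM2 and 1.57 ± 0.34 (SE), edgeR adjusted p = 8.3e-05, for shRRM2/shp16. Both ended under limma on the deposited log2 RPKM, mismatched column included, and that for shRRM2 held on log2(RPKM + 0.1) without the column, with ranges from 0.00576 to 0.663 over 14 alternatives and from 4.4e-05 to 0.151 over 13 alternatives.

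Levels between genes were compared per kilobase of exon, as RPKM recomputed from the counts with the authors' gene lengths (mean ± SD, n = 3). By this measure CEBPB was the highest member in each group, at 43.0 ± 1.22 RPKM in control, 49.7 ± 2.69 in shRRM2 and 164 ± 2.32 in shRRM2/shp16. BIRC2 came next in control (31.3 ± 1.09 RPKM) and in shRRM2 (31.5 ± 0.997 RPKM). In shRRM2/shp16 the next places were taken by CCL2 (126 ± 4.04 RPKM), TNFRSF11B (89.2 ± 0.482 RPKM), SOD2 (62.9 ± 0.928 RPKM) and NFKBIA (51.6 ± 1.82 RPKM). SOD2, first by counts, was at rank 4 per kilobase, with a length of 18985 bases behind its RPKM. Neighbours among these 5 levels in shRRM2/shp16 lay farther apart than their SDs. The authors' FPKM gave another order in shRRM2/shp16, with SOD2 at 789.7, CCL2 at 392.6, NFKBIA at 194.9 and CEBPB at 156.6. In shRRM2 the authors' FPKM was 177.7 for SOD2 and 46.7 for CEBPB. The order of members thus depends on the measure and on the gene length used.

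Of 54 other genes of the pathway (receptors, adaptors, kinases, ubiquitin enzymes and ligands outside the module), 45 could be tested. Those not tested were CD40, TLR1, TLR2, TLR4, NOD2, NFKBIL1, TNF, LTA and LTB. NFKBIL1, TNF, LTA and LTB have 7 or 8 identifiers each. Reads that aligned to several places were tallied apart from the genes, so the counts of these 4 genes may be too low. In shRRM2/shp16 against shRRM2, 14 of these were higher and 12 lower, beside the 31.9% and 29.1% of tested genes called, with a median log2 difference of 0.00. Against control, 13 were higher and 15 lower in shRRM2 (median -0.06), beside 29% and 31.8% of tested genes. In shRRM2/shp16 against control these counts were 15 and 17 (median -0.05), beside 30% and 32.4%. Highest between the hairpin groups were IRAK3, a brake on Toll-like receptor signalling, at 2.42 ± 0.07 on the log2 scale, its close relative IRAK2 at 1.21 ± 0.06 and the nuclear IkB gene NFKBID at 0.68 ± 0.12. IRAK3 was at 11.2, 11.9 and 12.0 CPM in control, 10.0, 9.44 and 8.47 in shRRM2 and 49.6, 47.7 and 52.5 in shRRM2/shp16, the last group far above the others. Lowest were the scaffold gene CARD10 at -1.40 ± 0.10, MAP3K14, the gene of the NF-kB-inducing kinase of the non-canonical branch, at -0.57 ± 0.11, and the pattern-recognition receptor gene NOD1 at -0.52 ± 0.15. MAP3K14 values were 14.9, 14.4 and 15.1 CPM in control, 9.56, 10.7 and 12.0 in shRRM2 and 8.49, 7.21 and 6.06 in shRRM2/shp16, highest in control without overlap.

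The authors' deposited table compares shRRM2/shp16 with shRRM2 and marks 28 members as significant. These 28 were among the 30 called from the counts and had the same sign in the authors' deposited table and in the counts. In the authors' deposited table, TNFAIP3 was at 8.41 FPKM in shRRM2 and 79.9 FPKM in shRRM2/shp16, a log2 fold change of 3.25, and TNIP1 had one of -0.37. CFLAR (q = 0.134) and IRF1 (q = 0.0529) were called from the counts but not marked in the authors' deposited table.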

How the data were processed

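RNA-seq gene tables of 9 IMR90 libraries (3 control, 3 shRRM2, 3 shRRM2/shp16) were used, grouped by their labels. Per the submitters' processing notes, TopHat2 2.0.9, Cufflinks 2.0.2, Cuffdiff and GRCh38 were used. The authors deposited raw read counts per gene for each library, in the layout of HTSeq. Strand setting and annotation release are not given in the sources used here. Tally lines that name no gene were left out of library sizes. The authors also deposited log2 RPKM values per library, found from the counts to be log2(x + 1) with x the RPKM divided by 1000. On that scale 8 of 9 columns matched the counts within a relative tolerance of 0.001 and the column of shRRM2 replicate c did not (0.765% of 8233 genes). Whether that column or the count file holds the intended library is not given in the sources used here. The deposited table further holds the authors' FPKM per group and log2 fold change, p-value and q-value between the hairpin groups. The authors' test statistic, a score per gene in the deposited table, was not used. There were 0 columns of no sample.

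Counts were tested in edgeR 4.0.16 (R 4.3.3) with filterByExpr (minimum count 10, equal to 0.5574 CPM), TMM scaling and 1 quasi-likelihood fit of 9 libraries (6 residual degrees of freedom, common biological coefficient of variation 0.027), two-sided, adjusted by Benjamini-Hochberg over 16561 genes. CPM are counts over the TMM-scaled total. Library values are given for members called with a fitted log2 difference of 1 or more, in size, in some comparison, and of the other pathway genes the 3 highest and 3 lowest called in shRRM2/shp16 against shRRM2 are named. IRAK3 and MAP3K14 library values were chosen after their values were seen. The members and lists were chosen with earlier results of these data known. Positions are from GENCODE 29 on GRCh38. Alternatives were RLE size factors, DESeq2 1.42.0, other filters, 6 libraries only, a replicate block, each library left out, and limma 3.58.1 on the RPKM values. A fit without the shRRM2 replicate c column was added after seeing the data. Tested on simulated data for shRRM2 against control (15766 genes), the fit recovered 88 of 94 genes changed by 1 and 56 of 97 changed by 0.5 on the log2 scale. It also called 7 unchanged genes. The simulation changed 200 genes at a fixed spread, while 10079 genes were called in the data, so recovery there may differ. Reads without molecular identifiers are not independent molecules, so depth covers counting error only.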

Additional observations from a re-analysis of the deposited data

How the results depend on the processing

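The count of members called moved by over 1.5 times under a single alternative: in shRRM2 against control it was 25, and 16 with limma on the deposited log2 RPKM. Other alternatives gave 18 to 25 there, 27 to 31 in shRRM2/shp16 against shRRM2 (30 in the edgeR fit) and 30 to 35 in shRRM2/shp16 against control (35). The deposited log2 RPKM adds 1 to values divided by 1000, which compresses low genes, and 1 of its columns does not match the counts. On it RELA, not called from the counts in shRRM2/shp16 against control (-0.03, the range of adjusted p being 0.0438 to 0.968 over 14 alternatives), had the opposite sign, 1.60e-03 on the compressed scale, and the cause was not tested. Of 1645 member values under 18 settings, 1582 kept their direction and side of the threshold, 53 calls were lost, 9 were gained and 1 had the other sign. RLE size factors changed no call.

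The share of higher calls among all genes called went from 52.3% to 62.5% (deposited log2 RPKM) and 61.8% (log2(RPKM + 0.1)) in shRRM2/shp16 against shRRM2, and from 48.1% to 58.9% and 60.3% against control, where the median of all genes was 0.13 with log2(RPKM + 0.1). Among members called, the higher share in shRRM2 against control was 72.0%, and 81.2% on the deposited log2 RPKM.

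With the replicate letter as a block (replicate block), 25, 30 and 35 members were called in the 3 comparisons, as without it, and it changed no call. Same-letter libraries of different groups had correlations of -0.033 to 0.093 between their deviations from group means. Libraries with different letters had correlations of -0.085 to 0.066. Such low values show no pairing by letter, but they cannot settle whether same-letter libraries shared an infection or a batch. Members under about 10 counts a library (CCL7, CCL20, CX3CL1, BCL2A1 and TNFRSF9 in control, and CCL7, CCL20 and BCL2A1 also in shRRM2) are limited by depth, and their fold sizes are uncertain.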
